A study of Mus musculus with 6 samples.

Results

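Aminoacyl-tRNA synthetases attach each amino acid to its tRNA, and 36 genes for them were followed in mouse liver RNA sequencing. The genes were taken by name, 20 for cytosolic enzymes or their subunits and 16 for mitochondrial ones, whose symbols end in 2. All 36 were found among the 54232 Ensembl genes counted in each library, 35 by their symbol and Mars1 by its older symbol Mars. All 36 passed the filter on low counts, with at least 73 counts in any library. There were 2 groups of 3 libraries from livers of chow-fed male C57BL/6 mice aged 8 to 10 weeks. All mice were null for Nr1h4, which encodes the bile acid receptor FXR (Fxr-/-). The control group carried floxed Xbp1 alleles (Fxr-/-Xbp1fl/fl, called SKO), and the other group also lacked the transcription factor gene Xbp1 in the liver (Fxr-/-Xbp1LKO, called DKO), so the comparison asked what hepatic XBP1 adds in FXR-null liver. No source used here names the Cre line. Whether each library is a different mouse is not stated either, and p-values then describe only how these samples spread, which can be technical. The titles of 3 DKO libraries and 1 SKO library hold 2 numbers each, with no explanation.

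As background, each synthetase recognises 1 amino acid and charges the matching tRNAs. The cytosol and the mitochondrion mostly use separate nuclear genes, but Gars and Kars each make the enzyme for both compartments, Eprs joins the glutamyl and prolyl enzymes in 1 protein, and Farsa and Farsb are the subunits of the cytosolic phenylalanyl enzyme. In the cytosol several synthetases sit in a large multisynthetase complex held together by the scaffold proteins Aimp1, Aimp2 and Eef1e1, while the others are outside it. When amino acids run short or the ER is stressed, eIF2 kinases favour translation of ATF4, a transcription factor that is known to raise many cytosolic synthetase genes together with amino acid synthesis and transport genes. The uncharged tRNA sensor among those kinases is GCN2, encoded by Eif2ak4. Xbp1 acts in another arm of the ER stress response.

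Library totals ranged from 16966422 to 21107674 counts. Values below are normalised CPM (counts of a gene relative to the library's scaled total), scaled by edgeR's TMM factors, which were 0.903 to 0.951 in SKO and 1.05 or more in DKO. Xbp1 stood at 225, 260.3 and 254 CPM in SKO and was lower in every DKO library, at 95.7, 67.0 and 68.2 CPM, with a log2 change of -1.68 ± 0.14 (SE; edgeR adjusted p = 0.000146). Nr1h4 was counted at 97.2 CPM in DKO and 98.5 in SKO, and as the deleted exons are not given, this does not check its genotype. Of 13986 genes tested, edgeR called 1446 higher (10.3%) and 1357 lower (9.70%) in DKO at an adjusted p under 0.05. Scaled by total counts alone, the median log2 change of all genes moved from 0.01 to 0.23 and the calls to 3859 higher and 538 lower, and with upper-quartile factors to 1856 and 987. Changes below are therefore relative to the median gene. Other cells of the liver moved with genotype too. Hepatocyte markers were lower in DKO for 5 of 6 genes (summed level 76643 to 104407 CPM in SKO, 48571 to 59444 in DKO), and markers were higher for 4 of 6 stellate genes (115 to 164 against 252 to 422 CPM), 3 of 5 cholangiocyte genes (60.8 to 73.3 against 121 to 199), 2 of 6 macrophage genes (6 of 6 at an unadjusted p under 0.05 and by DESeq2; 383 to 484 against 493 to 750.1) and 3 of 4 tested cycling genes (9.59 to 11.1 against 18.8 to 33.0). Without SKO replicate 2, calls fell to 1 of the hepatocyte and 0 of the stellate markers. EdgeR called no endothelial or lymphocyte marker, with 1 of 5 endothelial genes lower and 1 of 5 lymphocyte genes higher at an unadjusted p under 0.05, and DESeq2 called 1 lymphocyte gene. No marker was at 0 in every library, and DKO replicate 1 held the highest sums of the stellate, cholangiocyte, macrophage, lymphocyte and cycling lists. The part of these shifts in the synthetase values was not tested, and in bulk tissue fewer cells of a type and less RNA per cell cannot be told apart.

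The synthetase genes moved little as a family. In DKO, 5 of the 36 were called higher (13.9%, against 10.3% of all genes tested) and 1 was called lower (2.78%, against 9.70%). The called genes were Sars, Vars and Gars of the cytosol, which rose, and Mars2, Tars2 and Hars2 of the mitochondrion, of which Hars2 fell. No member changed by as much as Xbp1: the ratio of DKO to SKO ran from 0.806 for Lars2 to 1.47 for Mars2. The median log2 change was 0.11 over the 20 cytosolic genes and 0.04 over the 16 mitochondrial ones, beside 0.01 over all genes tested, and the mitochondrial median was -0.02 without SKO replicate 2 and -0.03 without DKO replicate 2. Standard errors were 0.10 or less on the log2 scale for 30 of the 36 genes.

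**Figure D1:**
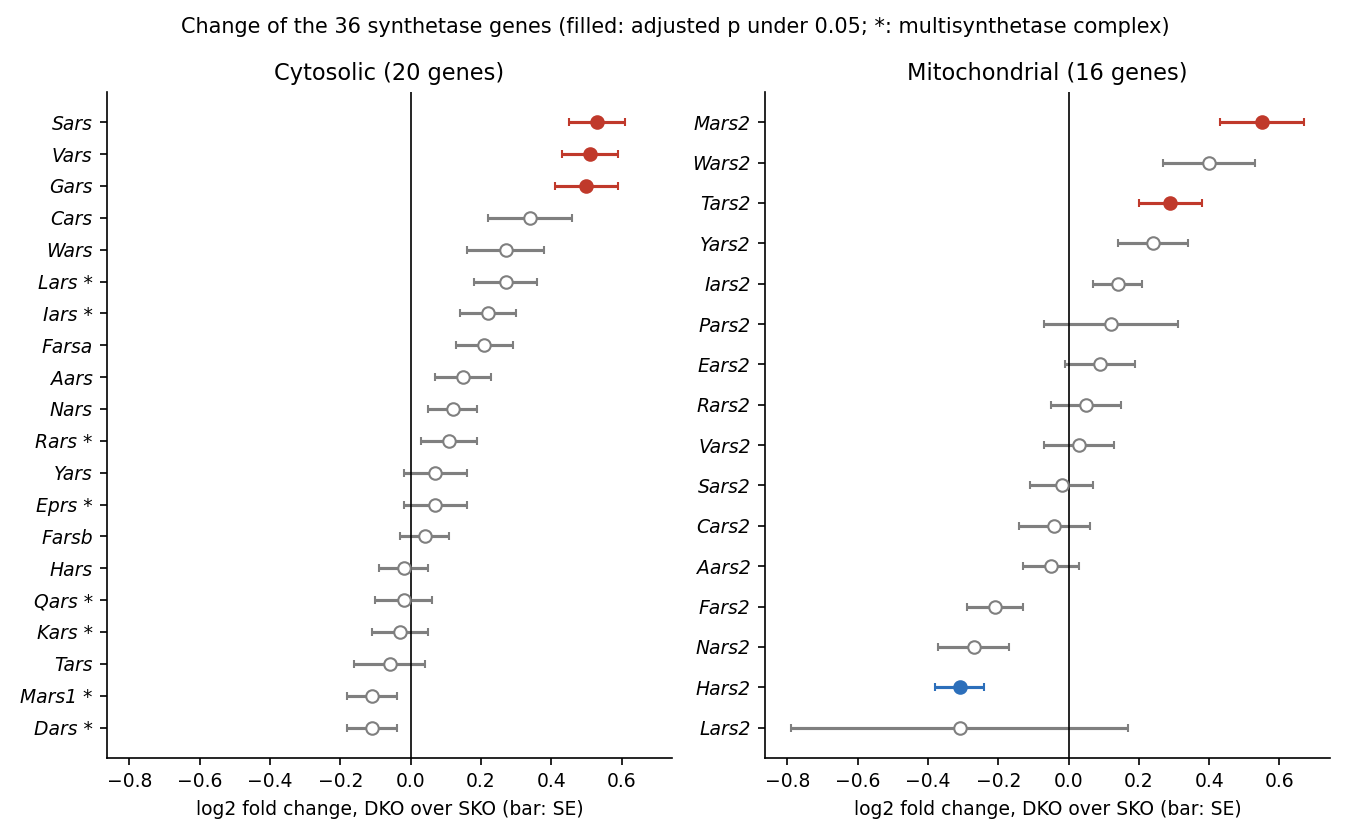
Log2 fold change of DKO over SKO (horizontal axis, bars are the standard error from edgeR) for 20 cytosolic and 16 mitochondrial synthetase genes, each on its own line in order of change. Filled points passed an adjusted p under 0.05: Sars, Vars and Gars lie near 0.5 on the left, Mars2 and Tars2 on the right are above 0, and Hars2 is below 0.

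At an unadjusted p under 0.05, 12 of the 36 members were higher and 3 lower, where 18.0% and 16.5% of all genes tested were. More members stood apart between the groups than were called. The 3 DKO libraries lay above the 3 SKO libraries for 14 of 36 genes (38.9%, against 20.2% of all genes tested) and below them for 4 (11.1%, against 19.4%). In the cytosol these were 9 above and 1 below, and in the mitochondrial set 5 above and 3 below. With 3 against 3 libraries an exact permutation test of 1 gene cannot give less than p = 0.1. The 12 genes that stood apart without being called were Aars, Cars, Farsa, Farsb, Iars, Lars, Iars2, Wars2 and Yars2 on the higher side and Mars1, Fars2 and Nars2 on the lower side.

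Sars, Gars and Vars were the cytosolic genes called, and all 3 enzymes work outside the multisynthetase complex. Sars, the seryl-tRNA synthetase gene (ENSMUSG00000068739, chromosome 3, 108424865 to 108445209 in mm10), stood at 67.4, 71.4 and 68.0 CPM in SKO and at 109, 95.0 and 92.9 CPM in DKO. Its lowest DKO library was well above its highest SKO library, and the mean rose from 68.9 ± 2.14 to 99.1 ± 9.01 CPM (SD, n = 3 per group), a log2 change of 0.53 ± 0.08 (edgeR adjusted p = 0.00209). Gars, the glycyl-tRNA synthetase gene that serves both compartments (chromosome 6, 55038007 to 55079500), stood at 51.0, 56.9 and 55.2 CPM in SKO and at 85.3, 69.6 and 75.5 CPM in DKO. The groups did not overlap, and DKO replicate 1 was the highest library (log2 0.50 ± 0.09, edgeR adjusted p = 0.00422). Vars, the valyl-tRNA synthetase gene (chromosome 17, 35000987 to 35016322), stood at 31.3, 34.0 and 35.2 CPM in SKO and at 51.2, 48.0 and 43.7 CPM in DKO. Here too every DKO library was above every SKO library (log2 0.51 ± 0.08, edgeR adjusted p = 0.00323). Each of the 3 calls held in all 6 fits that left out 1 library, with adjusted p-values up to 0.0175, and under each of the 6 other settings. DKO replicate 1 was the highest library for all 3 genes, and without it they were still called.

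**Figure D2:**
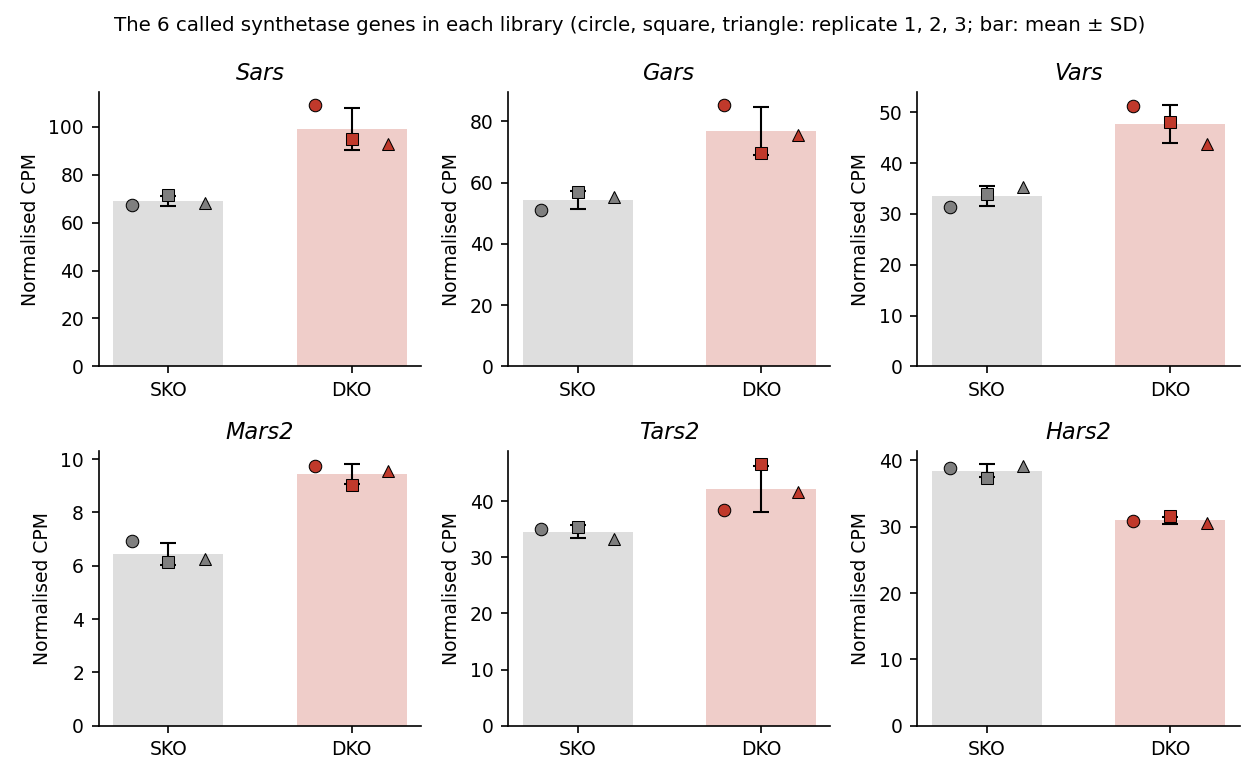
Normalised CPM (vertical axis, from 0) of the 6 called synthetase genes in each library, with bars at the group mean and whiskers of 1 SD (3 libraries per group). The DKO points lie above the SKO points for Sars, Gars, Vars, Mars2 and Tars2 and below them for Hars2.

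The sequence just before the start site was read for the members in RefSeq's promoter table (GRCm38.p6, the assembly of mm10), which held 27 of the 36, with 28 start sites. The 250 bases before each start were searched on both strands for TGATGNAA, the core letters of the composite element that ATF4 binds with C/EBP partners, whose reverse complement is TTNCATCA. The letters were found for 3 of the 27 genes, Gars, Aars and Tars (11.1%, against 3.91% of the 27025 genes in the table, counting a gene with any start site that held them). Of these only Gars was called. The start sites of Sars, Mars2 and Tars2 did not hold the letters in this window, while Vars was not in the table. These start sites need not match the gene annotation used here. Those of Sars and Gars lay outside the annotated gene, and the 120 bases before those of Tars2 and Aars lay wholly in annotated exons. The UPR element TGACGTGG was in no member's window (0.603% of all genes), the ER stress element (ERSE) in none (0.13% of all genes), and ACGTG, the core of the former, in 7 of 27 (25.9%, against 18.5%). A match is a run of letters and not a measured binding site. The 120 bases before the start are shown for the called gene with the letters (Gars), for a gene with the letters that was not called (Tars), and for Sars and Mars2, the called genes with the largest changes in their compartments. Capitals mark the match, which lies on the opposite strand in both cases, 30 to 23 bases before the start in Gars and 15 to 8 bases before it in Tars. They are chr6:55037881-55038000 (+ strand, Gars), chr15:11399659-11399778 (- strand, Tars), chr3:108445260-108445379 (- strand, Sars) and chr1:55237057-55237176 (+ strand, Mars2), each written 5′ to 3′ on the gene's strand.
Gars: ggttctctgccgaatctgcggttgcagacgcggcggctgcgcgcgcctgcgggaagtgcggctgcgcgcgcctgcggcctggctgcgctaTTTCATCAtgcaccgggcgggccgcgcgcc
Tars: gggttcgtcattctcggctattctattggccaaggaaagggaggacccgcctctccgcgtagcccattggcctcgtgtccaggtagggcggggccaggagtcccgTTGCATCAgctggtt
Sars: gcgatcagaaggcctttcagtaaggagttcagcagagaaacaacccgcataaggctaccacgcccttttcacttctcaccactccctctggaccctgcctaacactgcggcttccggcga
Mars2: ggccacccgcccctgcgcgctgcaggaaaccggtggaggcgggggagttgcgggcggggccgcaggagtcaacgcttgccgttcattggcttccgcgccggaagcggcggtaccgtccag

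The other cytosolic enzymes outside the complex had smaller changes, none of them called by edgeR with TMM factors and the filter on low counts. Of the 12 cytosolic genes outside the complex 3 were called higher and none lower by edgeR, 6 and 0 at an unadjusted p under 0.05, with a median log2 change of 0.18. Cars, for cysteine, stood at 33.4, 30.7 and 26.9 CPM in SKO and at 44.7, 36.7 and 33.6 CPM in DKO. Its groups were apart by a narrow margin (log2 0.34 ± 0.12, edgeR adjusted p = 0.0704). It was called with upper-quartile factors, total counts alone or no filter (edgeR adjusted p = 0.0481, 0.0145 and 0.00434). Wars, for tryptophan, whose gene is also known to respond to interferon, stood at 22.8, 19.6 and 24.7 CPM in SKO and at 29.5, 23.9 and 27.5 CPM in DKO. The Wars groups overlapped (log2 0.27 ± 0.11, edgeR adjusted p = 0.115), and edgeR called none of 12 interferon-induced genes, with 1, Oasl2, higher at an unadjusted p under 0.05 and called by DESeq2 and limma-voom. Aars, for alanine, was the most counted member at 269.8, 254 and 268 CPM in SKO and 302, 302 and 276 CPM in DKO (log2 change 0.15 ± 0.08, edgeR adjusted p = 0.211). Every DKO library of Aars was above every SKO library without a call, and 14.3% of its annotated exon bases are shared with Exosc6. Total counts alone called both Aars and Wars higher (edgeR adjusted p = 0.0126 and 0.0201).

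The enzymes for asparagine, tyrosine, phenylalanine, histidine and threonine were not called with TMM factors. Total counts alone called Nars, Yars, Farsa and Farsb higher, and upper-quartile factors called Farsa (edgeR adjusted p = 0.0401). Nars, for asparagine, stood at 119 ± 7.19 CPM in SKO and 129 ± 4.08 in DKO (log2 0.12 ± 0.07), and Yars, for tyrosine, at 36.2 ± 1.31 and 38.0 ± 3.65 CPM (log2 0.07 ± 0.09), with overlapping groups for each. Of the subunits of the phenylalanyl enzyme, Farsa, the catalytic alpha subunit, was 22.5 ± 1.32 CPM in SKO and 26.0 ± 0.322 in DKO (log2 0.21 ± 0.08, edgeR adjusted p = 0.0939). Farsb, the beta subunit, was 41.2 ± 0.834 and 42.5 ± 0.649 CPM (log2 0.04 ± 0.07, edgeR adjusted p = 0.681). Hars, for histidine, was 37.2 ± 2.02 and 36.7 ± 0.259 CPM, and Tars, for threonine, 126 ± 16.8 and 121 ± 7.62 CPM, with log2 changes of -0.02 ± 0.07 and -0.06 ± 0.10 that turned positive with total counts alone and, for Hars, with upper-quartile factors.

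Where edgeR called 10.3% of all genes tested higher and 9.70% lower, it called none of the 8 synthetase genes of the multisynthetase complex. DESeq2 and limma-voom called none of the 8 either. At an unadjusted p under 0.05, 2 were higher and 0 lower, where 18.0% and 16.5% of all genes tested were. Upper-quartile factors called 2 of them higher, Lars and Iars, where 13.3% of all genes were. Total counts alone called 4 (27.6% of all genes), and no filter called 1, Lars (7.35% of all genes). Their median log2 change was 0.02, and their summed level was 599 to 644 CPM in SKO and 623 to 639.8 in DKO. The difference between genes inside and outside the complex was not tested. Lars, for leucine, stood at 32.2, 31.7 and 34.4 CPM in SKO and at 41.7, 34.7 and 42.3 CPM in DKO. DKO replicate 2 was close to the SKO libraries, and without it Lars was called (edgeR adjusted p = 0.0174), while over all libraries it was not (log2 0.27 ± 0.09, edgeR adjusted p = 0.0614). Iars, for isoleucine, was 48.1 ± 3.93 CPM in SKO and 56.0 ± 3.42 in DKO (log2 0.22 ± 0.08, edgeR adjusted p = 0.0811). Rars, for arginine, and the bifunctional Eprs were higher by 0.11 ± 0.08 and 0.07 ± 0.09 on the log2 scale, with overlapping groups.

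The remaining genes of the complex were close to the SKO level or slightly under it. Kars, the lysyl enzyme of both compartments, was 72.8 ± 5.12 CPM in SKO and 71.3 ± 3.98 in DKO (log2 -0.03 ± 0.08), and Qars, for glutamine, was 74.2 ± 4.35 and 73.2 ± 6.17 CPM (log2 -0.02 ± 0.08). Dars, for aspartate, was 114 ± 4.12 and 105 ± 6.39 CPM (log2 -0.11 ± 0.07). Mars1, for methionine, stood at 64.5, 67.0 and 67.4 CPM in SKO and at 64.3, 63.0 and 57.3 CPM in DKO. Each DKO library of Mars1 was under each SKO library, the first pair by little, and edgeR did not call it (log2 -0.11 ± 0.07, adjusted p = 0.316). With total counts alone all 4 values turned positive, and those of Kars and Qars also did with upper-quartile factors. Mars1 shares 1.99% of its exon bases with Ddit3, the CHOP gene on the other strand, and reads there may have been left out of the counts.

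Among mitochondrial enzymes, 2 of 16 genes rose (12.5%, against 10.3% of all genes tested) and 1 fell (6.25%, against 9.70%), shares near those of all genes. Mars2, the mitochondrial methionyl-tRNA synthetase gene (chromosome 1, 55237177 to 55248470), stood at 6.93, 6.14 and 6.25 CPM in SKO and at 9.74, 9.03 and 9.54 CPM in DKO. The groups were well apart (log2 0.55 ± 0.12, edgeR adjusted p = 0.0114), on 109 to 232 counts per library, and without SKO replicate 2 the adjusted p was 0.0526. Tars2, for threonine, stood at 35.1, 35.4 and 33.3 CPM in SKO and at 38.5, 46.6 and 41.6 CPM in DKO. Its groups did not overlap, with DKO replicate 2 highest (log2 0.29 ± 0.09, edgeR adjusted p = 0.0396), and the call was lost without any library except DKO replicate 1 (adjusted p up to 0.129) and with DESeq2 (adjusted p = 0.0713) or limma-voom (adjusted p = 0.0520). Wars2 and Yars2 also stood apart on the higher side without a call, at log2 changes of 0.40 ± 0.13 and 0.24 ± 0.10 (edgeR adjusted p = 0.0563 and 0.101), and without SKO replicate 1 both were called (adjusted p = 0.0494 and 0.0428). Wars2 was also called with upper-quartile factors, total counts alone or no filter (edgeR adjusted p = 0.0358, 0.0106 and 0.0457). Yars2 was called with total counts alone (edgeR adjusted p = 0.0108).

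Hars2, the mitochondrial histidyl-tRNA synthetase gene (chromosome 18, 36783008 to 36792562), was the only member called lower. It stood at 38.8, 37.4 and 39.2 CPM in SKO and at 30.8, 31.6 and 30.6 CPM in DKO. The spread within each group was small beside the gap (log2 -0.31 ± 0.07, edgeR adjusted p = 0.0130). Without DKO replicate 3 the adjusted p was 0.0501, and with total counts alone the change was -0.09 (edgeR adjusted p = 0.396). Hars2 and Hars lie head to head and share 195 exon bases, 4.56% of those of Hars2, and their reads there cannot be told apart without strand. Nars2, for asparagine, and Fars2, for phenylalanine, were also lower in every DKO library, at log2 -0.27 ± 0.10 and -0.21 ± 0.08 (edgeR adjusted p = 0.0832 and 0.0935), and the value of Fars2 turned positive with total counts alone.

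For 7 of the mitochondrial genes the groups overlapped around small changes. Aars2, Cars2, Sars2, Vars2, Rars2, Ears2 and Pars2 had log2 changes from -0.05 (Aars2) to 0.12 (Pars2), none called, and the values below 0, those of Aars2, Cars2 and Sars2, turned positive with total counts alone or upper-quartile factors. Ears2, the glutamyl enzyme that also starts the mitochondrial route to glutamine-charged tRNA, had a log2 change of 0.09 ± 0.10 (edgeR adjusted p = 0.574). Iars2, for isoleucine, was the most counted mitochondrial member at 101 ± 2.98 and 112 ± 4.20 CPM (log2 0.14 ± 0.07, edgeR adjusted p = 0.177). Total counts alone called Iars2 higher (edgeR adjusted p = 0.00749). Its annotated exons share 22.9% of their bases with Rab3gap2, so part of its reads may have been left out. All 37 genes of the mitochondrial chromosome were listed at 0 counts in every library, so the mitochondrial tRNAs and messages that these enzymes serve were not measured.

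Lars2, for leucine, spread widely between libraries of the same group. It stood at 103, 41.1 and 40.5 CPM in SKO and at 38.2, 47.0 and 63.7 CPM in DKO. SKO replicate 1 and DKO replicate 3 were the high libraries, and the groups overlapped (log2 -0.31 ± 0.48, edgeR adjusted p = 0.705). Without SKO replicate 1 the value changed sign to 0.28 (edgeR adjusted p = 0.437). CT010467.1, annotated as a ribosomal RNA gene, stood at 574, 111 and 86.7 CPM in SKO and at 86.8, 118 and 159 CPM in DKO, so the same libraries were high. The antisense RNA gene Gm15564 stood at 17.7, 4.28 and 4.33 CPM in SKO and at 3.11, 3.76 and 9.02 CPM in DKO. These genes were picked after their values were seen, and the part of ribosomal RNA in the Lars2 counts was not tested. The cytosolic Lars was not high in SKO replicate 1, at 32.2 CPM. It was highest in DKO replicate 3, at 42.3 CPM, close to the 41.7 CPM of DKO replicate 1.

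**Figure D3:**
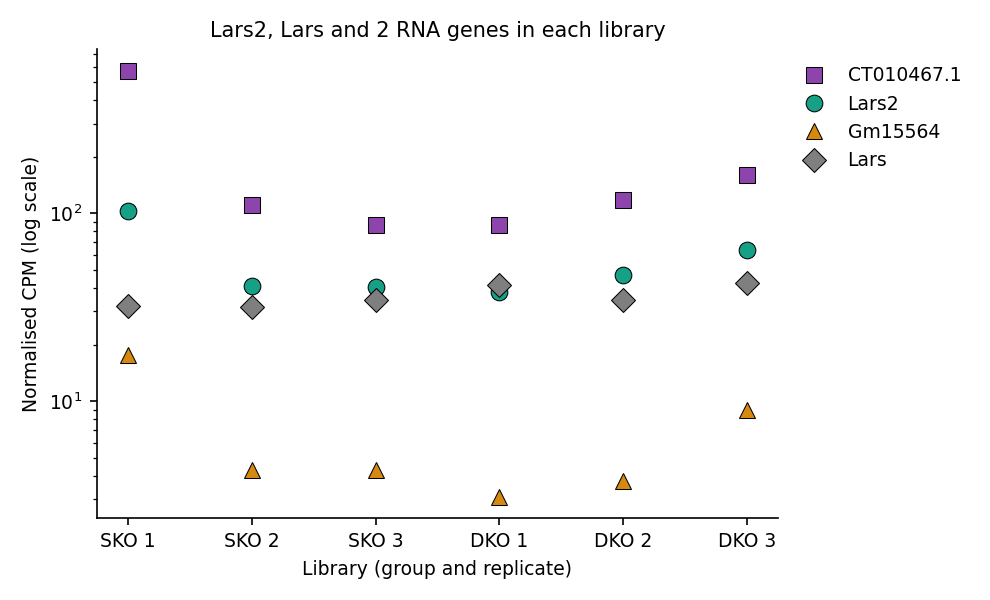
Normalised CPM (log axis) of Lars2, the cytosolic Lars, the ribosomal RNA gene CT010467.1 and the antisense RNA gene Gm15564 in each of the 6 libraries. SKO replicate 1 is highest for Lars2 (103 CPM), CT010467.1 (574 CPM) and Gm15564 (17.7 CPM), and DKO replicate 3 is the next highest for each, while Lars stays between 31.7 and 42.3 CPM.

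The cytosolic enzyme was then set against the mitochondrial enzyme for the same amino acid within each library, as the log2 ratio of their counts, which does not depend on the scaling of libraries. There were 17 such pairs, in which Eprs and Fars2 each appear in 2. The DKO ratios lay above the SKO ratios in 8 pairs, below them in 2 and overlapped in 7. How often other pairs of genes stand apart was not counted. Of single genes tested, 20.2% were higher and 19.4% lower in DKO without overlap. The median shift of the ratio was 0.20 on the log2 scale, from -0.66 to 0.54. These are descriptions without a test, since pairs share genes and libraries.

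The ratio for serine moved most upward. The log2 ratio of Sars to Sars2 was 2.27, 2.38 and 2.32 in SKO and 3.11, 2.75 and 2.74 in DKO, a shift of 0.54, with Sars2 itself at 13.7 ± 0.181 and 13.5 ± 0.780 CPM. The ratio of Vars to Vars2 was -0.03, 0.35 and 0.33 in SKO and 0.88, 0.52 and 0.68 in DKO, a shift of 0.48. The groups stood apart for each of these pairs, as they did upward for the alanine, cysteine, asparagine and histidine pairs and for both phenylalanine subunits. Methionine went the other way: the ratio of Mars1 to Mars2 was 3.21, 3.44 and 3.43 in SKO and 2.72, 2.80 and 2.58 in DKO, a shift of -0.66. Threonine followed it, with a ratio of Tars to Tars2 of 2.04, 1.81 and 1.73 in SKO and 1.56, 1.47 and 1.53 in DKO. Methionine and threonine were thus the pairs in which the mitochondrial gene gained on the cytosolic one without overlap.

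**Figure D4:**
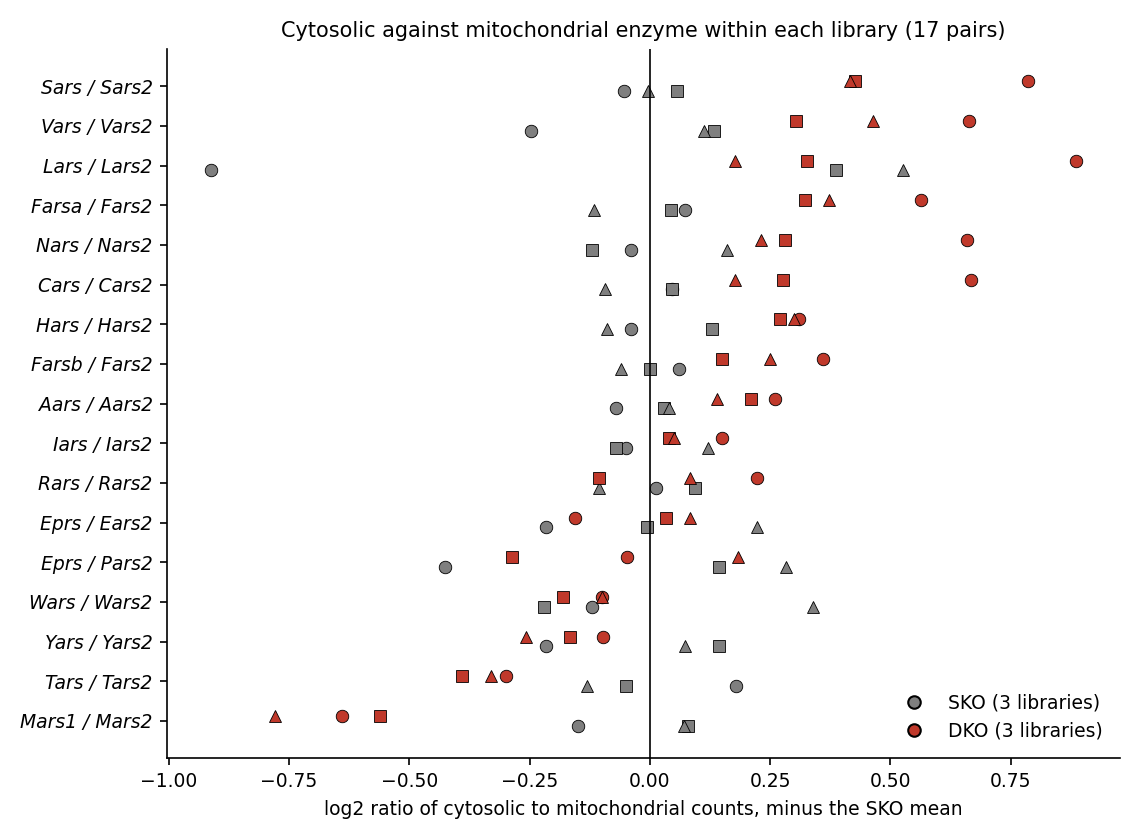
Log2 ratio of cytosolic to mitochondrial counts in each library, less the mean of the SKO libraries (horizontal axis), for 17 pairs of genes ordered by the shift in DKO. Red DKO points lie to the right of all grey SKO points in 8 pairs, led by Sars and Sars2. They lie to the left in 2, Mars1 with Mars2 and Tars with Tars2. The spread of Lars with Lars2 is wide in SKO (SD 0.80), through replicate 1, and also in DKO (SD 0.38).

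Levels were compared between genes per kilobase of annotated exon. In SKO the cytosolic genes ran from 4.60 CPM per kilobase (Cars) to 28.4 (Aars), with a median of 13.1, and the mitochondrial genes from 0.570 (Mars2) to 11.4 (Iars2), with a median of 4.91. Of the 20 cytosolic genes, 11 were above the highest mitochondrial one, and in 14 of the 17 pairs the cytosolic gene was the higher. Aars (28.4 ± 0.964), Nars (27.2 ± 1.65), Dars (26.1 ± 0.944) and Tars (21.4 ± 2.84) led in SKO, and neither Aars and Nars nor Nars and Dars differed beyond their SDs, whereas Aars and Dars did. In DKO Gars took the place of Tars among the first 4. Lengths matter here: with the longest transcript in place of all exons Dars led in SKO, at 52.2 CPM per kilobase, and the level of Eprs went from 9.58 to 30.8, since its annotated exons cover 18102 bases and its longest transcript 5638.

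Genes that share the known ATF4 link did not move to the same degree. Of the 13 cytosolic synthetase genes known from general knowledge to respond to ATF4, 3 were called higher (23.1%, against 10.3% of all genes tested). At an unadjusted p under 0.05, 7 were higher, where 18.0% of all genes tested were. Their median log2 change was 0.22. Of the 7 others none was called by edgeR, DESeq2 or limma-voom, 1 at an unadjusted p under 0.05, with a median of -0.02 that turned to 0.04 with upper-quartile factors and 0.20 with total counts alone. By comparison 13 of 19 tested ATF4-linked genes outside the family were called higher, with a median of 1.31. Asns, which makes asparagine, stood at 4.07, 9.43 and 6.02 CPM in SKO and at 72.5, 77.8 and 66.8 CPM in DKO, while Nars, which charges asparagine, was higher by only 0.12 on the log2 scale and was not called. Atf5, a stress-induced transcription factor gene, went from 169.8, 154 and 174 CPM to 558, 442 and 444 CPM. These lists overlap in what is known of their control and were assembled with earlier results of these data known, so their counts are descriptions.

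No rise of mRNA was called by edgeR with TMM factors for the regulators upstream. Of 9 eIF2 kinases and regulators edgeR called 0 higher and 3 lower, where it called 10.3% of all genes tested higher and 9.70% lower. At an unadjusted p under 0.05, 0 were higher and 3 lower, where 18.0% and 16.5% of all genes tested were. With only 9 genes, 0 higher is not far from these shares. DESeq2 and limma-voom called 0 higher, though total counts alone called Eif2s1 higher, as it did 27.6% of all genes. Ppp1r15b, a subunit of the phosphatase that reverses eIF2 phosphorylation, stood at 163, 163 and 157 CPM in SKO and at 75.5, 67.6 and 79.5 CPM in DKO (log2 change -1.12 ± 0.08, edgeR adjusted p = 2.68e-05). Eif2ak1, the haem-regulated kinase gene, was lower by log2 -0.37 ± 0.09 (edgeR adjusted p = 0.0208), a call lost when SKO replicate 2 or 3 or DKO replicate 3 was left out (adjusted p up to 0.0868) and with total counts alone. Atf4 mRNA was 105 ± 4.12 CPM in SKO and 88.5 ± 3.31 in DKO (log2 -0.25 ± 0.07, edgeR adjusted p = 0.0322). That call held without SKO replicate 1 but was lost without any other single library (adjusted p as high as 0.128), and neither upper-quartile factors nor total counts alone kept it. Eif2ak4, which encodes GCN2, was 15.5 ± 1.69 and 14.2 ± 0.134 CPM and was not called.

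Partner genes of the synthetases changed little by edgeR with TMM factors, which called 10.3% of all genes tested higher and 9.70% lower. Of 9 tested scaffold and synthetase-like genes 1 was called, Sepsecs, whose product turns serine-derived tRNA into the selenocysteine form. It stood at 109.8, 115 and 113 CPM in SKO and at 78.0, 92.0 and 88.8 CPM in DKO (log2 change -0.38 ± 0.08, edgeR adjusted p = 0.00864), and total counts alone ended the call. Of the 3 scaffolds of the complex, Aimp1 and Eef1e1 had log2 changes of 0.04 ± 0.08 and 0.05 ± 0.12. Aimp2 stood at 4.57, 5.48 and 6.14 CPM in SKO and at 7.47, 7.22 and 5.86 CPM in DKO, with overlapping groups and a log2 change of 0.34 ± 0.16 (edgeR adjusted p = 0.169) that was called with total counts alone. None of 10 mitochondrial tRNA and translation partners was called by edgeR, DESeq2 or limma-voom (1 higher and 1 lower at an unadjusted p under 0.05). Upper-quartile factors called 1 of the 10 higher, Gfm1, and total counts alone 4, where these settings called 13.3% and 27.6% of all genes higher. The most counted were Gfm1 (log2 0.19 ± 0.08) and Gatb, of the mitochondrial glutamine route (log2 0.11 ± 0.11). None of 5 cytosolic elongation factor genes was called by edgeR with TMM factors over all libraries, and none at an unadjusted p under 0.05. Eef2 was at 0.02 ± 0.11 and Eef1a1 at -0.13 ± 0.09 on the log2 scale. Total counts alone called 1 of the 5 higher (27.6% of all genes), and leaving out SKO replicate 1 called 1 lower (8.34% of all genes).

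**Figure D5:**
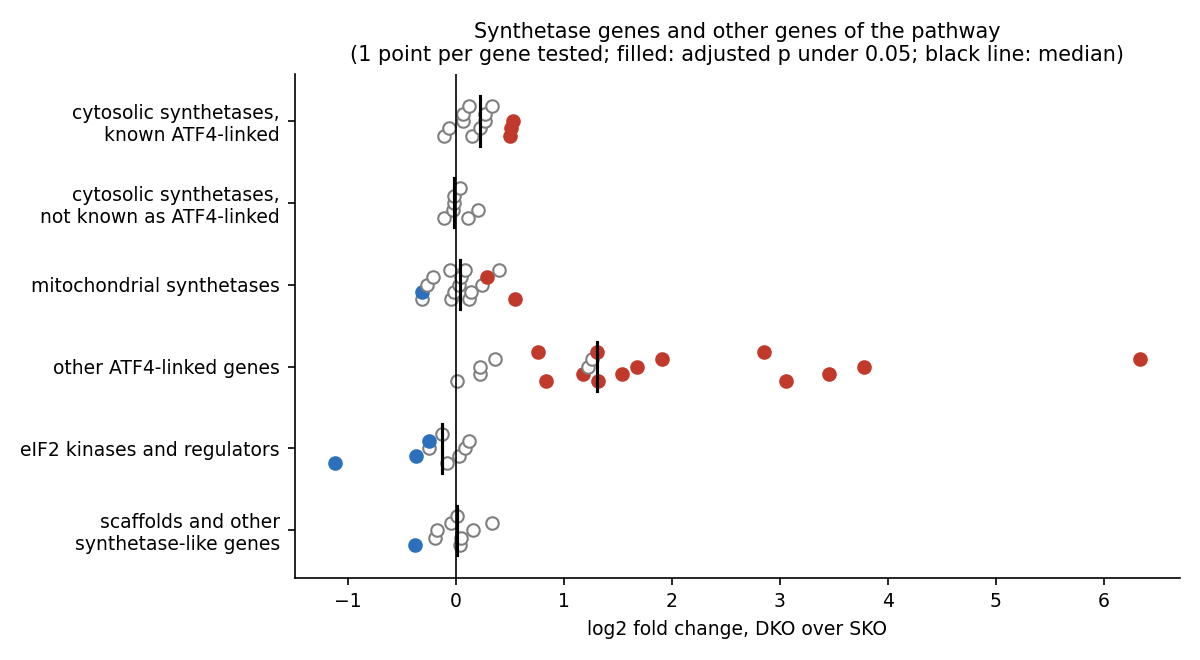
Log2 fold change of DKO over SKO (horizontal axis) for each gene tested in 6 lists, with red and blue filled points for genes called higher and lower and a black line at the median. Synthetase points lie between -0.31 and 0.55, while the other ATF4-linked genes have a median of 1.31, and the point farthest right is Slc7a11, whose SKO libraries held 2, 0 and 1 counts, so that its fitted value is no measure of size.

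The compartments also differed in which DKO library was highest. DKO replicate 1 was the highest DKO library for 12 of 20 cytosolic genes and for 3 of 16 mitochondrial genes, and DKO replicate 2 for 3 and 11. The same count over all genes was not made, and genes of the same libraries are not independent, so this is a description. Averaged over genes with equal weight, cytosolic log2 levels relative to the SKO mean were 0.19, 0.14 and 0.12 in DKO replicates 1, 2 and 3, and the mitochondrial ones without Lars2 were 0.03, 0.12 and 0.05. The SKO libraries lay between -0.01 and 0.01 for the cytosolic and between -0.05 and 0.08 for the mitochondrial genes. The cytosolic means of the 3 DKO libraries were thus all above those of SKO, while the mitochondrial means overlapped.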

How the data were processed

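Each library has 1 deposited file of whole-number read counts for 54232 Ensembl genes. Tools named in the submitters' processing notes are HTSeq 0.6.1p1, STAR, DESeq2 and cutadapt 1.13, with the build mm10. No source used here gives their settings, the annotation or the use of strand, and reads in exons shared by genes may be dropped. Samples were grouped by the labelled genotype. The chi-square per degree of freedom between libraries of a group was 10.2 to 29.4 over 6 pairs, so none was a copy. Names, coordinates and exon lengths came from GENCODE M21, which matched 54079 identifiers. After filterByExpr, the test was that of edgeR 4.0.16 under R 4.3.3 (TMM, glmQLFit with robust estimation, glmQLFTest), with Benjamini-Hochberg adjustment over 13986 genes and calls under 0.05. The SE is the log2 change over the square root of F. Ratios of pairs used counts plus 0.5. DESeq2 1.42.0 and limma-voom (limma 3.58.1) were alternatives. The fits were tested on simulated data. Named were all members, Xbp1, Nr1h4, Atf4 and, from each list, up to 5 called genes or else the 2 most counted. Slc7a11, Oasl2, Aimp1, Aimp2, Eef1e1, Eif2ak4 and Eif2s1 fall outside this and were chosen after their values were seen. The members and lists were chosen with earlier results of these data known.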

Additional observations from a re-analysis of the deposited data

How the results depend on the processing

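The calls of Sars, Vars and Gars held under all 12 alternatives. Upper-quartile factors called 7 cytosolic members higher (median log2 change 0.17), where 13.3% of all genes tested were called higher (median 0.07). No filter called 5 cytosolic members higher, where 7.35% of all genes were. Total counts alone called 14 cytosolic members higher (median 0.33), and 5 mitochondrial members higher and 0 lower (median 0.26). That setting called 4397 genes in all, 3859 higher (27.6%) and 538 lower (3.85%), with a median of 0.23 over all genes. The members' medians under these 2 scalings thus moved along with that of all genes. DESeq2 and limma-voom each called 1 mitochondrial member higher (9.97% and 9.18% of all genes), and no filter called 2 lower (6.17% of all genes). Without 1 library, genes called numbered 1419 to 2739, with 4.71% to 11.0% of all genes tested called higher. Cytosolic members higher then numbered 3 to 4, and mitochondrial members higher 0 to 3 and lower 0 to 1. Cytosolic medians were 0.10 to 0.15 and mitochondrial medians -0.03 to 0.11, with -0.02 without SKO replicate 2 and -0.03 without DKO replicate 2. The cause of these differences was not tested. Pairs without overlap numbered 10 to 11, but leaving out a library cannot make separate groups overlap, so this count is no check of stability. Of the single members' values under alternatives, 396 kept their side of the threshold, 26 gained a call and 10 lost one. Scaling changed the sign of 10 members with total counts alone and 6 with upper-quartile factors, none of them called. Per longest transcript, levels moved by more than the spread for 33 of 36 members. No paired analysis was possible because the labels number no replicates, and the numbers used here follow accession order and only name libraries. At 73 counts or more per member, depth limits mainly Pars2 and Mars2.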
